A study of Mus musculus with 6 samples.

Results

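A pair of genes of the fibroblast growth factor (FGF) system, Fgf3 and Hs6st3, were followed by their symbols through single-nucleus libraries of mouse T-cell progenitors that list 28048 genes. FGF ligands are secreted proteins that bind receptor tyrosine kinases on the cell surface, and they do so together with heparan sulfate, a sulfated sugar chain carried by membrane and matrix proteins. Fgf3, first known as the int-2 locus of mouse mammary tumors, encodes one such ligand. Hs6st3 encodes a Golgi enzyme that adds sulfate to the 6-O position of heparan sulfate, one of the modifications that set how the chain binds its partners.

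The study asked how a delay in the activation of Bcl11b, the regulator of T-cell commitment, bears on the choice between T-cell and innate lymphoid cell (ILC) fates. Bone marrow progenitors of C57BL/6 mice were grown on OP9-DL1 cells, a stromal line that presents the Notch ligand Delta-like 1, sorted as DN1 (CD44+ CD25-), DN2a (CD44+ CD25+ Bcl11b-) or DN2b (CD44+ CD25+ Bcl11b+) cells, and returned to OP9-DL1 for 4 days. WT mice carried a YFP reporter in both copies of Bcl11b. ΔTE mice carried the same reporter and lacked the timing enhancer of Bcl11b on both copies. Donors of both sexes were between 2 and 4 months old, their marrow was pooled from 6 to 8 mice, and the cytokines listed for such cultures were Flt3-L, IL-7, IL-2, SCF and IL-15. Each of the 6 conditions is 1 library with no replicate, and no test between conditions was run.

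Both genes were chosen because their summed levels had been seen to be higher in ΔTE than in WT cells in these same libraries. The genotype ratios below are therefore a description of the members, with no test. Levels are given as CPM, the UMIs (molecules) of a gene scaled to the total of its library or group. They were summed over cells in which 200 or more genes were seen, with no more than 2000 UMIs and a mitochondrial share of 30% or less. The intervals are 95% exact intervals that cover counting error only.

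The filter kept 60671 of 1170130 barcodes, between 3401 and 19489 per library, with a median of 386 to 485 UMIs per cell, and no barcode occurred in more than 1 library. Mitochondrial genes took 14.1% of UMIs in the WT DN2a library and 21.3% to 23.4% in the other 5. Bcl11b itself was lower in ΔTE than in WT at every start, by log2 ratios of -1.39, -1.06 and -0.67 for DN1, DN2a and DN2b. The summed level of the 8 stroma markers, all detected, was lower in ΔTE at each start, at 257 against 459 CPM in DN1, 1118 against 1831 in DN2a and 312 against 693 in DN2b. Reverse transcription took place in 3 wells per library, and these wells are parts of a library and are not taken as biological replicates. Whether the wells of a library came from a single culture is not given in the sources used here. Well 2 of the ΔTE DN2a library stood apart from its partners, with a stroma marker sum of 2854 CPM against 484 and 307 and a mitochondrial share of 17.2% against 22.3% and 24.0%. Its partner, well 1, stood apart in Lars2, a mitochondrial tRNA synthetase gene, at 1875 CPM against 194 and 97.3 in wells 2 and 3. The stroma marker sum and mitochondrial share of well 2 lay nearer to the WT DN2a wells (1713 to 1956 CPM and 13.5% to 15.1%) than to its partners, whereas its Bcl11b, at 185 CPM, lay farther from those WT wells (526 to 549) than that of its partners (284 and 288). Whether the content of this well matches its label was not tested.

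In the GENCODE M21 annotation of GRCm38, Fgf3 lies on the plus strand of chromosome 7, spans 6354 bases and has 4 exon blocks of 2326 bases in all. Hs6st3 lies on the plus strand of chromosome 14 and spans 731475 bases, of which 1708 are exonic in 2 exons and 729767 form a single intron. The labels name the molecule as nuclear RNA. Whether intronic reads were counted is not given in the sources used here. The upstream sequences of the genes are shown because they differ as much as the gene bodies do. The first 200 bases of each RefSeq promoter window (build GRCm38.p6, all upstream of the annotated start) are printed 5′ to 3′ on the plus strand with CpG dinucleotides in capitals, Fgf3 at chr7:144838362-144838561 and Hs6st3 at chr14:119138015-119138214.

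Fgf3: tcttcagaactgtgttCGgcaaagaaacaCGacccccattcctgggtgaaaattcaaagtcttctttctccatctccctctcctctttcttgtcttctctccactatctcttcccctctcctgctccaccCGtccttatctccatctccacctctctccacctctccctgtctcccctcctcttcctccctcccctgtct
Hs6st3: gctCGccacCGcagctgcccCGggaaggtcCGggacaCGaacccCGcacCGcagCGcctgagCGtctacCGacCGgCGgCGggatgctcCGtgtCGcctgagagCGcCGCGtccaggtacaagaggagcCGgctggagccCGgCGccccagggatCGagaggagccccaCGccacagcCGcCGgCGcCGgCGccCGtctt

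The Fgf3 stretch held 3 CpG dinucleotides at 52.5% G and C, and 63.6% of the 32851 mouse windows held at least as many. The Hs6st3 stretch held 29 CpG dinucleotides at 75.5% G and C, a number reached by 2.51% of windows. A set of 3 motifs was searched on both strands: TGTGGT for the Runx family, AGATAA for Gata factors, and CTTTGA for the TCF and LEF factors. None of the motifs contains another. The Fgf3 stretch held 1 AGATAA and 1 CTTTGA and no TGTGGT, and the Hs6st3 stretch held none of the 3. Of all windows, 11.6% held TGTGGT, 8.42% AGATAA and 11.8% CTTTGA.

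Fgf3, the ligand, was higher in the ΔTE library at all 3 starts. At the DN1 start it stood at 94.5 CPM (86.9 to 102.6, 566 UMIs) in WT and 156 CPM (146 to 167, 922 UMIs) in ΔTE. At the DN2a start the levels were 89.8 CPM (83.7 to 96.2, 812 UMIs) and 162 CPM (153 to 173, 1026 UMIs), and at the DN2b start 23.1 CPM (17.7 to 29.5, 63 UMIs) and 65.3 CPM (53.7 to 78.5, 112 UMIs). The log2 ratios of ΔTE to WT were 0.73 (0.57 to 0.88), 0.86 (0.72 to 0.99) and 1.5 (1.04 to 1.97). Of the genes with at least 50 UMIs in the pair of libraries, 0.926% of 10155 at DN1, 0.895% of 10955 at DN2a and 0.386% of 8546 at DN2b had a higher ratio. The DN2a ratios are to be read against a median over tested genes of -0.14, where those of the other starts were -0.00 and -0.02.

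The wells of the genotypes did not overlap for Fgf3 at any start. The WT DN1 wells measured 84.2, 97.7 and 99.3 CPM and the ΔTE DN1 wells 158.6, 149.9 and 160.8. The WT DN2a wells lay between 88.4 and 90.7 CPM, while the ΔTE DN2a wells measured 125, 226 and 161, the highest being the well that stood apart. The WT DN2b wells measured 26.5, 18.2 and 24.6 CPM and the ΔTE DN2b wells 85.3, 43.4 and 63.7. All ΔTE wells of a start were thus above all WT wells of that start, as they were for 8.69%, 2.8% and 8% of tested genes at DN1, DN2a and DN2b. A ratio past 1.2-fold upward with an interval that left out 0, which Fgf3 had at all 3 starts, was reached by 4.91%, 3.26% and 7.86% of tested genes. At DN2a, 357 genes passed this rule upward and 2359 (21.5%) downward, and with mitochondrial UMIs left out of the totals these became 735 and 1236. Without well 2 of ΔTE DN2a the DN2a ratio of Fgf3 was 0.61, and without well 1 it was 1.12.

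Hs6st3, the sulfotransferase, was higher in ΔTE at the DN1 and DN2a starts and level at DN2b. At DN1 it measured 535 CPM (516 to 554, 3203 UMIs) in WT and 803 CPM (780 to 826, 4733 UMIs) in ΔTE. At DN2a the levels were 719 CPM (702 to 737, 6501 UMIs) and 1152 CPM (1125 to 1178, 7274 UMIs), and at DN2b 699.9 CPM (669 to 732, 1911 UMIs) and 706 CPM (667 to 747, 1212 UMIs). The log2 ratios were 0.59 (0.52 to 0.65), 0.68 (0.63 to 0.73) and 0.01 (-0.09 to 0.12). The DN2b interval left out the ratios of the earlier starts by counting error alone. It takes UMIs as Poisson counts, which those of Hs6st3 did not follow over cells, as given below, so it is too narrow. A higher ratio was held by 1.73% of tested genes at DN1, 1.37% at DN2a and 45.8% at DN2b.

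Wells separated the genotypes for Hs6st3 only at DN1, where WT measured 600.4, 506 and 510.2 CPM and ΔTE 798, 845 and 764. The WT DN2a wells measured 698, 723 and 733 CPM. The ΔTE DN2a wells measured 1403, 651 and 1256. The low value came from well 2, the one with the high stroma marker sum and the highest Fgf3, and the high value from well 1, the one with the high Lars2. The value of well 2 lay near the WT DN2a wells. The part of these differences between wells in the Hs6st3 values was not tested. Without that well the DN2a ratio was 0.91, and without well 1 it was 0.37. At DN2b the wells of WT (771, 684 and 679 CPM) and ΔTE (550.3, 748 and 839) overlapped. The genes thus did not follow each other among the ΔTE DN2a wells: the well highest for Fgf3 was lowest for Hs6st3.

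**Figure D1:**
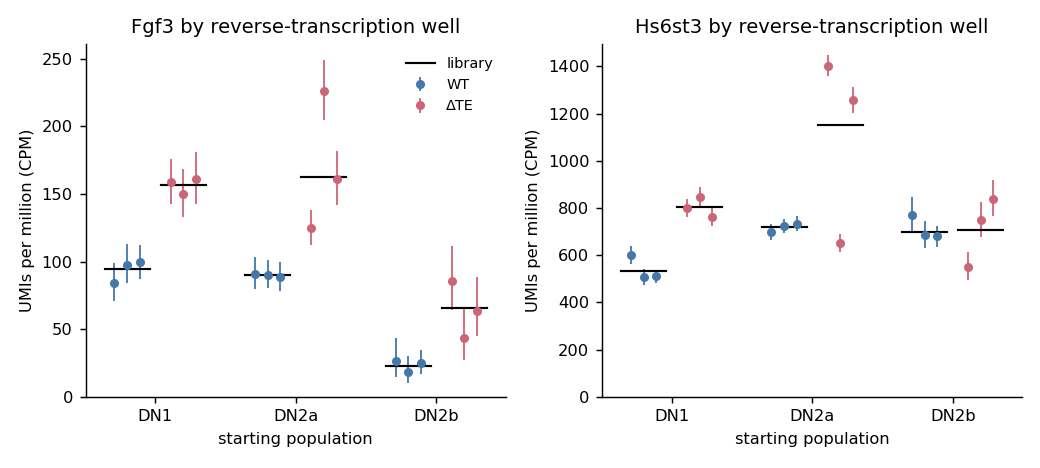
CPM of Fgf3 (left) and Hs6st3 (right) in each reverse-transcription well by starting population, WT in blue and ΔTE in red, with 95% Poisson intervals as vertical lines and the library's level as a black line. The ΔTE wells of Fgf3 lie above the WT wells at each start, and the ΔTE DN2a wells of Hs6st3 spread from 651 to 1403 CPM.

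Across starts, the order of the levels differed between the genes. Fgf3 ran from ΔTE DN2a and ΔTE DN1, whose intervals overlapped, through WT DN1 and WT DN2a, which also overlapped, to ΔTE DN2b and then WT DN2b. Cells started as DN2b held 3.89-fold less Fgf3 than those started as DN2a in WT and 2.49-fold less in ΔTE. For Hs6st3 the highest library was ΔTE DN2a, followed by ΔTE DN1, by WT DN2a, ΔTE DN2b and WT DN2b with overlapping intervals, and by WT DN1. The step from DN2a to DN2b in Hs6st3 was a log2 ratio of -0.04 (-0.11 to 0.03) in WT and -0.71 (-0.79 to -0.62) in ΔTE.

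**Figure D2:**
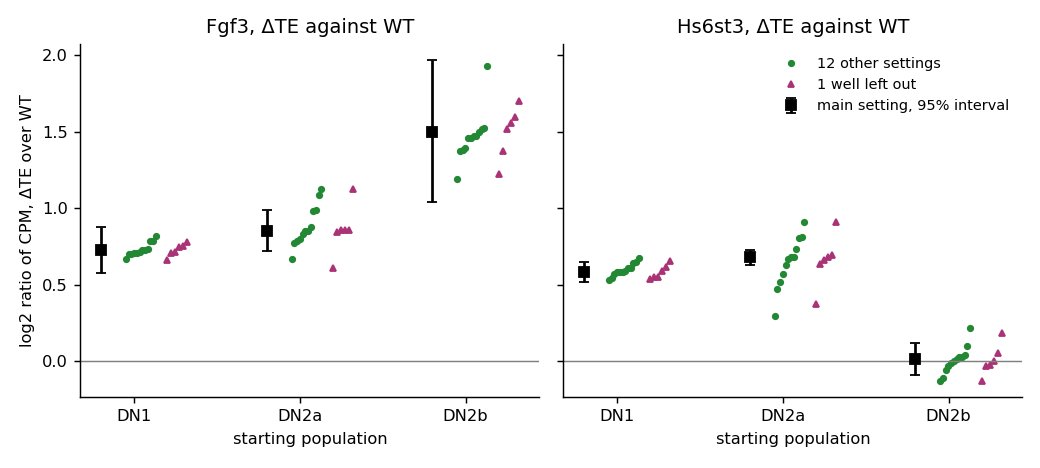
Log2 ratio of CPM, ΔTE over WT, for Fgf3 (left) and Hs6st3 (right) at each start. Black squares are the main setting with its 95% interval, green points 12 other processing settings and purple triangles the values with 1 well left out. Every Fgf3 value lies above 0, whereas the Hs6st3 values at DN2b fall on both sides of 0, from -0.13 to 0.22.

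The genes differed in how their UMIs were spread over cells. Fgf3 was found in 3229 cells, 96.3% of the number expected if UMIs fell on cells in proportion to depth (a Poisson draw within each library), and no cell held more than 4. The median over the 7972 nonmitochondrial genes with at least 500 UMIs was 95.5%. Hs6st3 was found in 12410 cells, 64.4% of the Poisson number, and 1 cell held 24 UMIs. Only 12 of the 7972 genes (0.151%) were lower in this share. These were Bgn, Col1a2, Cxcl12, Fstl1, Col1a1, Sparc, Col6a2, Lox, Col6a1, Fn1, Timp2 and Sned1, named after their values were seen. Most of them are genes known for matrix or stromal expression. At least 5 Hs6st3 UMIs were found in 859 cells, against 40.1 by the Poisson number. The intervals given for Hs6st3 take UMIs as Poisson counts and are thus too narrow, by an amount that was not measured. Fgf3 also had more cells with 2 UMIs (231 against 136) and with 3 (19 against 5.45) than the Poisson number. Its intervals are thus too narrow as well, by an amount that was not measured either.

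**Figure D3:**
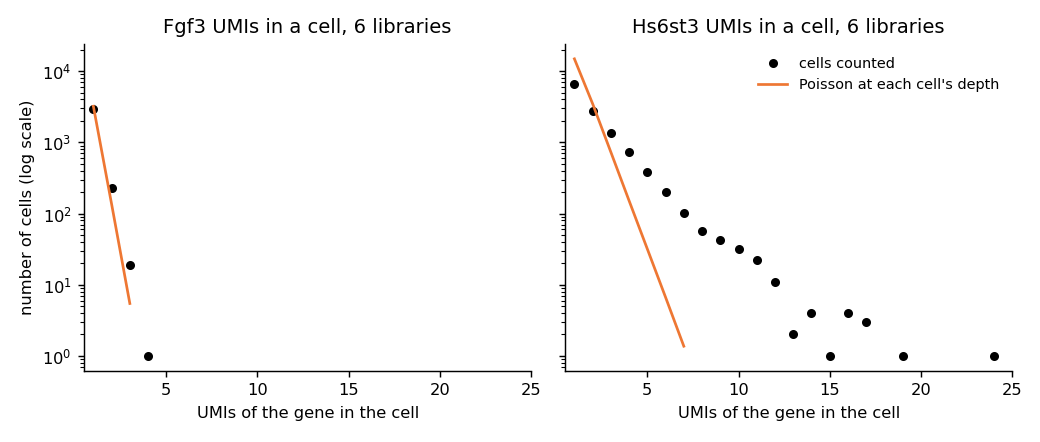
Number of cells (log scale) holding a given number of UMIs of Fgf3 (left) or Hs6st3 (right), summed over the 6 libraries. Points are cells counted and the line is the Poisson number at each cell's depth. Fgf3 has 231 cells with 2 UMIs where the line gives 136 and 19 with 3 where it gives 5.45. Hs6st3 has 727 cells with 4 UMIs where the line gives 151.

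Counted by cells in place of UMIs, the genotype difference in Hs6st3 at DN2a was smaller. After each cell was thinned to 300 UMIs, a UMI of Hs6st3 was found in 10.5% of WT and 16.0% of ΔTE cells at DN1, in 15.1% and 20.9% at DN2a and in 13.5% and 13.0% at DN2b. Unthinned, the shares were 14.7% and 22.2%, 19.3% and 27.9%, and 18.7% and 17.2%. As a log2 ratio of the thinned shares, Hs6st3 gave 0.47 (0.39 to 0.56) at DN2a in place of 0.68, and 0.61 (0.49 to 0.73) at DN1. When each cell counted at most once over the UMI total of its library, the ratios were 0.30 at DN2a and 0.53 at DN1. This last setting divides cells by UMIs, so that it also carries the difference in depth between the libraries. Cells with 5 or more UMIs made up 2.90% (2.60 to 3.22) of ΔTE DN2a cells, 0.770% (0.652 to 0.903) of WT DN2a cells, 1.53% of ΔTE DN1 cells and 0.970% of WT DN1 cells. At DN2b they made up 1.29% of WT and 1.32% of ΔTE cells.

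The share of cells with Fgf3 followed its CPM. At 300 UMIs per cell it was found in 2.61% of WT and 4.27% of ΔTE cells at DN1, in 2.50% and 4.60% at DN2a and in 0.725% and 1.91% at DN2b. Without thinning these shares were 4.76% and 8.10%, 3.97% and 8.11%, and 1.19% and 3.00%.

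The 859 cells rich in Hs6st3 were deeper than cells without it, with library medians of 683 to 837 UMIs against 375 to 468, so that a cut on UMIs chose for depth as well. Relative to cells with no Hs6st3 UMI, and with Hs6st3 itself left out of the total, the gene with the highest ratio among 7410 was Themis, which acts in T-cell receptor signaling during thymocyte selection, at 176 against 43.7 CPM (log2 2.01, 1.73 to 2.28, higher in 6 of 6 libraries). Fstl4, of the follistatin-like family, came next at 136 against 38.6 CPM (log2 1.82, 1.5 to 2.12, higher in 6 of 6). Zbtb16, which encodes the ILC regulator PLZF, measured 623 against 287 CPM (log2 1.12, 0.98 to 1.26) but was higher in only 4 of 6 libraries. Papss2, which makes the sulfate donor PAPS that sulfotransferases consume, had too few UMIs for that ranking and measured 46.8 against 14.0 CPM from 34 and 338 UMIs, higher in 4 of 6 libraries. Fgf3 measured 132 against 106 CPM, a log2 ratio of 0.31 (0.00 to 0.61), and was higher in 4 of 6. These sums mix libraries in unequal shares, since 336 of the 859 cells came from ΔTE DN2a. These cells and genes were picked after their values were seen.

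Cells were next grouped by markers that exclude both genes. A cell joined a class when the markers of that class, and of no other, summed to at least 2 UMIs. With few UMIs per cell, 47847 cells had no class, 4124 were ILC or NK, 3013 stroma, 2785 T-lineage, 1249 multipotent progenitor and 784 myeloid, and 869 met several classes. All listed markers were among the genes of the files except 2 of the 8 T-lineage markers, and each of the others had a UMI.

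Over all libraries, which the classes draw on in unequal shares, Hs6st3 was highest in T-lineage cells and lowest in stroma cells. It measured 1041 CPM (992 to 1092) in T-lineage, 843 (832 to 855) in unclassed, 770.5 (738 to 805) in ILC or NK, 569.8 (519.9 to 623) in multipotent progenitor, 284 (239 to 335) in myeloid and 186 (167 to 206) in stroma cells. This order of sums did not hold in each library. Multipotent progenitor cells measured 1271 CPM against 1253 in T-lineage cells in ΔTE DN2a. In ΔTE DN2b they measured 2195 against 898, from 18 UMIs in 12 cells. In both DN1 libraries, WT DN2a and WT DN2b they lay below T-lineage cells. In ΔTE DN1 myeloid cells (269 CPM) were below stroma cells (288). A Hs6st3 UMI was found in 28.4% of T-lineage cells at a median depth of 493 UMIs and in 7.24% of stroma cells at 522, and the latter class, of another lineage, gives the background. Stroma cells were below unclassed cells in each of the 6 libraries, with intervals that left out 0. T-lineage cells were above unclassed cells with such an interval in 3 libraries, all WT, at log2 ratios of 0.58, 0.33 and 0.68 for DN1, DN2a and DN2b. In the ΔTE libraries the same ratios were 0.21, 0.00 and 0.17, with intervals that held 0.

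Fgf3 measured 124 CPM (120.0 to 129) in unclassed cells over all libraries, the highest of these sums. It measured 110.2 CPM (97.9 to 124) in ILC or NK, 83.7 (60.1 to 114) in myeloid, 80.9 (62.8 to 103) in multipotent progenitor, 54.8 (44.1 to 67.4) in T-lineage and 29.4 (22.2 to 38.1) in stroma cells. The order did not hold by value within each library. In WT DN2a the myeloid (189 CPM, 5 UMIs), ILC or NK (120, 79 UMIs) and multipotent progenitor (115, 13 UMIs) values exceeded that of unclassed cells (104). The intervals of these ratios to unclassed cells held 0. ILC or NK cells differed from unclassed cells by interval in 0 of 6 libraries. T-lineage cells were below unclassed cells in all 6 libraries by value and in 2 of them by interval. Fgf3 was found in 1.76% of stroma cells at a median of 522 UMIs and in 5.59% of unclassed cells at 412. Stroma cells were below unclassed cells by interval in 3 libraries, WT DN1 and both DN2a libraries. In ΔTE DN1 (106 CPM against 169), WT DN2b (8.47 against 26.1) and ΔTE DN2b (64.4 against 72.4) the interval of the ratio held 0. In these 3 libraries, both DN2b libraries among them, Fgf3 was thus not separable from the background of another lineage at this depth.

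**Figure D4:**
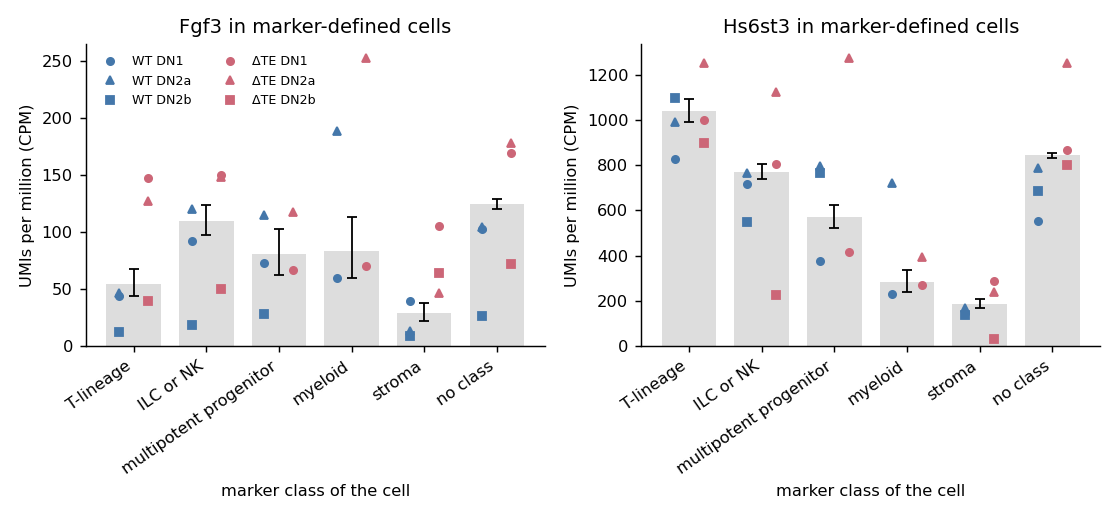
CPM of Fgf3 (left) and Hs6st3 (right) by marker class, grey bars for all libraries with 95% Poisson intervals and points for each library with at least 40 cells of the class (blue WT, red ΔTE, circles DN1, triangles DN2a, squares DN2b). Summed over all libraries, Hs6st3 falls from 1041 CPM in T-lineage to 186 in stroma cells, an order that single libraries do not all keep. The Fgf3 points of single libraries spread widely within each class.

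Within classes, the ΔTE to WT ratio of Fgf3 was 0.72 (0.55 to 0.88), 0.78 (0.63 to 0.93) and 1.47 (0.94 to 2.02) in unclassed cells at DN1, DN2a and DN2b. In T-lineage cells it was 1.75 (0.02 to 3.67), 1.45 (0.69 to 2.23) and 1.73 (-0.07 to 3.68), from 5 and 9, 26 and 37, and 5 and 8 UMIs. ILC or NK cells gave 0.71 (0.12 to 1.31), 0.31 (-0.15 to 0.76) and 1.43 (-0.15 to 3.27). Multipotent progenitor cells gave -0.12 (-1.08 to 0.82) at DN1 and 0.03 (-1.32 to 1.33) at DN2a, on 42 and 23 UMIs. The ratio was also above 0 in stroma cells at DN2a, at 1.77 (0.72 to 2.85) from 14 WT and 21 ΔTE UMIs, although the feeder line is the same in every culture and carries no enhancer deletion. By value it was above 0 in stroma cells at DN1 too, at 1.42 (-0.08 to 3.03) from 7 WT and 11 ΔTE UMIs. At DN2b it was 2.93 (-1.34 to 8.81), from 1 WT UMI and 2 ΔTE UMIs.

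For Hs6st3 the same ratio in unclassed cells was 0.65 (0.57 to 0.72), 0.67 (0.61 to 0.72) and 0.22 (0.09 to 0.34). In stroma cells it was 0.98 (0.17 to 1.79) at DN1, from 26 WT and 30 ΔTE UMIs, and 0.50 (0.14 to 0.86) at DN2a, from 173 and 108. At DN1 and DN2a, Hs6st3 too was thus higher in the ΔTE cultures in the class marked by genes of the feeder line. The stroma ratio at DN2b was -2.07 (-7.46 to 0.61), from 16 WT UMIs and 1 ΔTE UMI. T-lineage cells gave 0.28 (-0.21 to 0.76), 0.34 (0.15 to 0.54) and -0.29 (-0.55 to -0.04). ILC or NK cells gave 0.17 (-0.05 to 0.40) at DN1, 0.55 (0.38 to 0.72) at DN2a and -1.28 (-1.75 to -0.84) at DN2b, where the level was 547 CPM in WT (146 UMIs) and 225 in ΔTE (58 UMIs). The level DN2b library ratio thus held classes that differed in direction. Shares of cells in the ILC or NK class at that start were 8.03% in WT and 13.7% in ΔTE, and the class markers summed to 845 and 1448 CPM.

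Cells were also split by whether they held a UMI of Bcl11b or Zbtb16, which is a split by detection and not by expression. Hs6st3 stood at 927 CPM in cells with Bcl11b alone, 1140 with Zbtb16 alone, 1243 with both and 673 with neither. The values with both and with Bcl11b alone exceeded that with neither in each of the 6 libraries. Fgf3 stood at 69.9, 148.8, 99.9 and 112 CPM in the same order. This order of the sums was not that of each library by value. In WT DN2b the highest value was that with neither gene (28.0 CPM, 44 UMIs) and in ΔTE DN2b that with both (102, 6 UMIs). In ΔTE DN1 the lowest was that with both (106, 10 UMIs). Fgf3 with both genes differed from that with neither by interval in 0 libraries. Within libraries, Fgf3 with Bcl11b alone was below that with neither gene by value in each of the 6 and by interval in 2, and with Zbtb16 alone it was above by interval in 2. Both genes were higher in ΔTE within each of these sets at DN1 and DN2a by value. For cells with Bcl11b alone the Hs6st3 ratios were 0.83 (0.61 to 1.05) and 0.84 (0.72 to 0.97), and for those with Zbtb16 alone 0.44 (0.30 to 0.59) and 0.66 (0.53 to 0.79). Median depths were 414 UMIs with neither gene and 660 with both.

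In single cells Hs6st3 was compared between cells with and without Fgf3. In WT DN1, Hs6st3 measured 529.5 CPM in cells without and 624 CPM in cells with 1 Fgf3 UMI, and in ΔTE DN1 784 (760 to 808) and 979.5 (896 to 1068). Between cells without and with 1 Fgf3 UMI, only in ΔTE DN1 did the intervals lie apart with the higher level beside Fgf3. In WT DN2a the values were 719 and 716, in ΔTE DN2a 1148 and 1161, in WT DN2b 705 and 426 and in ΔTE DN2b 703 and 664. Cells with 2 or more Fgf3 UMIs were few. In ΔTE DN2b, 8 such cells with 14 Hs6st3 UMIs measured 1479 CPM (808 to 2481), apart from the 703 (663 to 745) without Fgf3. In the other libraries the intervals of such cells and of cells without Fgf3 overlapped. All these intervals take Hs6st3 UMIs as Poisson counts, which they did not follow over cells, so they are too narrow. With so few cells, 1 cell rich in Hs6st3 can carry much of such a value. Over the 18 wells the Pearson correlation of log2(CPM + 1) was 0.20 between the genes, -0.80 between Fgf3 and Bcl11b and -0.08 between Hs6st3 and Bcl11b. Wells are parts of a library and are not replicates of a condition, so these values describe the libraries.

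By the same measure, the 5 genes most like Fgf3 over the 18 wells among 7971 were Trf (0.98), which encodes the iron carrier transferrin, Colgalt1 (0.92), a collagen galactosyltransferase, Napsa (0.92), an aspartic protease, Cpd (0.92), a carboxypeptidase, and Itga2b (0.92), the integrin chain CD41. Trf measured 44.4 and 81.8 CPM in WT and ΔTE DN1, 42.6 and 91.4 in DN2a and 14.3 and 32.6 in DN2b. Itga2b measured 98.2 and 142, 53.6 and 95.6, and 5.49 and 23.9 CPM. The genes most like Hs6st3 were Rapgef2 (0.91), an activator of Rap GTPases, Iqgap2 (0.86), a scaffold protein, Prkca (0.86), a protein kinase C, Fyb (0.85), an adaptor of T-cell receptor signaling, and Itga4 (0.84), an integrin chain. Prkca measured 612 and 906 CPM in WT and ΔTE DN1, 1013 and 1350 in DN2a and 864 and 1117 in DN2b, so that unlike Hs6st3 it was also higher in ΔTE at DN2b.

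The nearest protein-coding neighbors, by RefSeq order on GRCm38.p6, were Ano1 and Fgf4 for Fgf3 and Uggt2 and Oxgr1 for Hs6st3. Ano1, a chloride channel gene, was rare but had 36 UMIs in ΔTE DN2a against 7 in WT DN2a, a log2 ratio of 2.88 (1.69 to 4.29), and 16 against 9 at DN1. In each pair of libraries it fell below the 50 UMIs needed to be tested, so the shares over tested genes do not cover it. Fgf15, an endocrine FGF gene beyond Fgf4, had 9 UMIs against 1 at DN2a and 7 against 1 at DN1, and Fgf4 had 3 UMIs in all. Ccnd1, which encodes cyclin D1, had log2 ratios of -0.10, -0.93 and -1.14 at DN1, DN2a and DN2b, and its level was 484 CPM in stroma cells and 24.6 in unclassed cells. Around Hs6st3, Uggt2 had 116 UMIs in all and no ratio whose interval left out 0. Abcc4, a transporter gene 5 genes upstream, was lower in ΔTE at each start, by log2 ratios of -0.31, -0.24 and -0.45.

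Among the 22 FGF ligand genes, 15 had a UMI and only Fgf3, Fgf7 and Fgf13 had at least 50. Fgf7 measured 182 CPM in stroma cells and 1.80 in unclassed cells. Fgf13, whose product acts inside the cell, measured 9.16 CPM in WT DN2b and 25.6 in ΔTE DN2b (log2 1.49, 0.75 to 2.26), and its ratios of -0.56 and 0.07 at DN1 and DN2a had intervals that held 0. Of the 7 receptor and co-receptor genes, Fgfr1, Fgfr2 and Fgfrl1 had at least 50 UMIs. Fgfr2 was the one spread over all classes, at 72.2 CPM in unclassed, 75.5 in T-lineage and 112 in stroma cells, while Fgfr1 measured 3.44 CPM in unclassed and 157 in stroma cells. The Fgfr2 ratios of ΔTE to WT were -0.13 (-0.33 to 0.08), 0.04 (-0.13 to 0.20) and -0.36 (-0.72 to -0.01).

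Genes that carry or answer the FGF signal were counted next. Of the 20 relay genes, 1 was higher and 2 lower of 19 tested at DN1, 0 and 3 of 19 at DN2a and 1 and 2 of 18 at DN2b, with medians of -0.02, -0.09 and -0.03 beside -0.00, -0.14 and -0.02 over all genes. Upward calls were made for 4.91%, 3.26% and 7.86% of all tested genes and downward calls for 5.37%, 21.5% and 9.31%. Plcg1, a phospholipase also used by the T-cell receptor, was lower at each start, by -0.45, -0.53 and -0.42, with wells that did not overlap. The wells of ΔTE lay below those of WT for 8.31%, 16.7% and 9.28% of tested genes. Of the 17 feedback and target genes, 0 were higher and 0 lower of 9 at DN1, 1 and 4 of 11 at DN2a and 0 and 1 of 7 at DN2b. Dusp6, a phosphatase that limits ERK, had ratios of 0.13 (-0.13 to 0.40), 0.05 (-0.17 to 0.26) and 0.30 (-0.08 to 0.67), and Etv5, an ETS factor induced by FGF, 0.06 (-0.27 to 0.40), 0.22 (-0.03 to 0.47) and 0.15 (-0.30 to 0.59). Etv4 was the 1 gene higher at DN2a, at 0.62 (0.07 to 1.16), and with stroma-marker cells left out the list had 0 higher and 4 lower of 10 there. The share over all genes was not computed with those cells left out.

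Within heparan sulfate synthesis, Hs6st3 differed from its paralogs. Hs6st1 measured 15.0 and 19.5 CPM in WT and ΔTE DN1, 15.7 and 15.8 in DN2a and 22.0 and 22.7 in DN2b, and no interval of its ratio left out 0. Hs6st2 measured 296 CPM in stroma cells and 2.58 in unclassed cells. Its library ratios of -0.00, -0.87 (-1.16 to -0.60) and -2.17 (-3.55 to -1.02) lay beside the lower stroma marker sums of the ΔTE libraries, whose part in them was not tested.

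Of the 24 listed genes that modify the chain or supply its sulfate, and with Hs6st3 left out of the counts, 1 was higher and 1 lower of 11 tested at DN1, 1 and 5 of 12 at DN2a and 2 and 1 of 10 at DN2b, with medians of -0.00, -0.17 and -0.05. Over all tested genes, 4.91% were higher and 5.37% lower at DN1, 3.26% and 21.5% at DN2a and 7.86% and 9.31% at DN2b. The medians over all tested genes were -0.00, -0.14 and -0.02. The 1 gene of the list higher at each of the 3 starts was Papss2. It measured 6.84 and 16.8 CPM in WT and ΔTE DN1, 13.2 and 27.7 in DN2a and 10.3 and 28.6 in DN2b, with ratios of 1.30 (0.76 to 1.86), 1.07 (0.73 to 1.42) and 1.48 (0.78 to 2.20), and its wells did not overlap at any start. The wells of ΔTE lay above those of WT for 8.69%, 2.8% and 8% of tested genes at DN1, DN2a and DN2b. Papss1, which encodes the other PAPS synthase, had ratios of -0.00, -0.56 and -0.16. Ndst1, which starts sulfation of the chain, had ratios of -0.04 (-0.19 to 0.10), -0.10 (-0.23 to 0.03) and 0.29 (0.01 to 0.56), and Hs2st1, the 2-O-sulfotransferase, -0.00 (-0.14 to 0.14), -0.12 (-0.25 to 0.02) and -0.26 (-0.52 to -0.00).

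Chain synthesis genes had 0 higher and 3 lower of 10 at DN1, 0 and 3 of 10 at DN2a and 1 and 2 of 8 at DN2b, beside 4.91% higher and 5.37% lower, 3.26% and 21.5%, and 7.86% and 9.31% of all tested genes. Ext1, a subunit of the polymerase that extends the chain, was lower at each start, by -0.36, -0.52 and -0.34, with wells that did not overlap, and measured 450 CPM in stroma cells and 119 in unclassed cells. Among all tested genes, 8.31%, 16.7% and 9.28% had ΔTE wells below those of WT at DN1, DN2a and DN2b. Core proteins that carry the chain had 0 higher and 2 lower of 11 at DN1, 0 and 7 of 13 at DN2a and 0 and 4 of 7 at DN2b. Gpc6, a glypican at 854 CPM in stroma and 8.67 in unclassed cells, had ratios of -0.38, -0.86 and -1.89. With stroma-marker cells left out, the core protein calls became 0 and 1 of 6, 1 and 4 of 11 and 0 and 2 of 3. Without well 2 of ΔTE DN2a, the well with the high stroma marker sum, the DN2a calls became 0 and 11 of 13, with a median of -1.87 in place of -0.40. The share called over all genes was not computed for either setting, so these counts have no background. Tgfbr3, a proteoglycan that binds TGF-β and the core gene with 114 CPM in T-lineage cells, was lower at each start, by -0.86 (-1.12 to -0.61), -0.99 (-1.18 to -0.80) and -0.62 (-0.90 to -0.34).

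**Figure D5:**
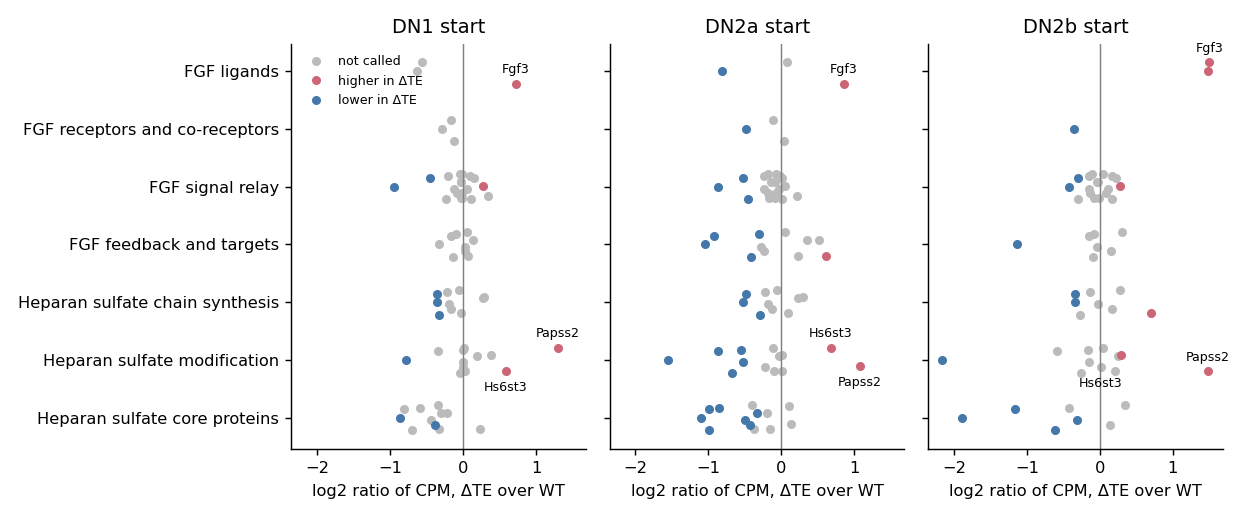
Log2 ratio of CPM, ΔTE over WT, of each gene with at least 50 UMIs in the pair of libraries, by pathway list and start. Red and blue points passed 1.2-fold upward or downward with an interval that left out 0, and grey points did not. Fgf3 stands right of the other FGF ligands at DN1 and DN2a, and Papss2 stands right of 0 at all starts.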

How the data were processed

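RNA of nuclei from re-cultured cells of the 6 conditions was measured by sci-RNA-seq3. The authors deposited raw UMI counts per gene and barcode, without normalization or a cell filter. The submitters' processing notes name mm9, and the aligner is not given in the sources used here. All-barcode totals were 8007395 to 14555100 UMIs per library.

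Groups came from the sample labels. After the study's methods, a barcode was kept as a cell if it had 200 or more genes, no more than 2000 UMIs and a mitochondrial share of 30% or less, and 60671 passed, fewer than the study states. No doublet caller was run. Totals for CPM were taken over genes seen in 15 or more cells (Python 3.11.15, numpy 2.4.6, pandas 2.3.3, scipy 1.17.1, matplotlib 3.10.9). Library ratios carry exact conditional Poisson intervals, shares Clopper-Pearson intervals, all at 95% and for counting error only. Ratios and calls were tested on library counts simulated as Poisson draws. Those draws held no clumping of UMIs in cells and no differences between wells, so the check does not cover either. Free RNA was not removed. TMM scaling used edgeR 4.0.16 (R 4.3.3) as an alternative only, and the closing section gives all alternatives.

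A gene was called past 1.2-fold with an interval that left out 0, among genes with at least 50 UMIs in the pair of libraries. The members, lists and tests were chosen with earlier results of these data known. Named genes were both members, genes of the lists with at least 50 UMIs, the 5 genes on each side in RefSeq order, and the 5 genes with the highest correlation over 18 wells among nonmitochondrial genes with at least 500 UMIs. Genes outside that rule are named as chosen after their values were seen. Reference tables use GRCm38, a different build from mm9, so no gene coordinates are given except those of the RefSeq windows. Fgf3 overlaps no annotated gene, and the 5 small genes annotated within Hs6st3 are not among the genes of the files.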

Additional observations from a re-analysis of the deposited data

Results flagged for a closer look

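Barcodes outside the filter, which no comparison above uses, were examined as data of their own, and 13 of their ΔTE to WT log2 ratios had intervals above 0. In barcodes with under 200 genes, Fgf3 gave 0.67 at DN1, 0.66 at DN2a and 0.80 at DN2b, and Hs6st3 gave 0.84 at DN1 and 0.31 at DN2a. In barcodes with over 30% mitochondrial UMIs, Fgf3 gave 0.80, 1.42 and 1.2 at DN1, DN2a and DN2b, and Hs6st3 gave 0.43, 1.58 and 0.20. In the few barcodes with over 2000 UMIs, Fgf3 gave 0.77 and Hs6st3 1.47 at DN1. At DN2b, Hs6st3 ran the other way in barcodes with under 200 genes (-0.25) and in those with over 2000 UMIs (-0.45). In barcodes with under 200 genes, Fgf3 measured 77.9 CPM in WT DN1 and 124 in ΔTE DN1, and Hs6st3 367 and 656, below the levels in filtered cells. Such barcodes were above filtered cells for Fgf3 in WT DN2a (96.8 against 89.8 CPM) and for Hs6st3 in WT DN2b (848 against 699.9) and ΔTE DN2b (713 against 706). Small nuclei and free RNA cannot be told apart in such barcodes.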

How the results depend on the processing

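Of 12 other settings, all kept the Fgf3 ratio above 0 at each start, and its values at DN1 (0.67 to 0.82) and DN2b (1.19 to 1.93) stayed within the main interval. At DN2a Fgf3 moved to 0.67 without a mitochondrial limit, 1.12 with a limit of 20% and 1.09 per filtered cell. Hs6st3 at DN1 moved to 0.67 with the 20% limit. Hs6st3 at DN2a moved to 0.74 with at least 300 genes per cell, 0.52 without a mitochondrial limit, 0.57 with the 20% limit and 0.81 outside mitochondrial genes. It also moved to 0.91 per filtered cell, 0.81 with TMM and 0.30 with each cell counted once over the UMI total. As the share of thinned cells it was 0.47, and without stroma-marker cells 0.63. Hs6st3 at DN2b moved to -0.13 with the 20% limit, -0.11 per filtered cell and 0.22 in unclassed cells. Leaving out 1 well at a time gave 0.67 to 0.78, 0.61 to 1.12 and 1.22 to 1.70 for Fgf3 and 0.54 to 0.66, 0.37 to 0.91 and -0.13 to 0.18 for Hs6st3 at DN1, DN2a and DN2b. The cause was not tested for any of these.

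With at least 3 marker UMIs per cell, Fgf3 measured 73.8 CPM in ILC or NK, 41.7 in multipotent progenitor, 27.3 in myeloid and 31.5 in cells of several classes, and Hs6st3 717, 346, 176 and 394 in the same order and 151 in stroma. Genes called with at least 200 UMIs fell to 353 lower at DN1 and, at DN2b, to 410 higher and 483 lower by fold and 376 higher and 462 lower by wells, with fewer genes tested. Outside mitochondrial genes, calls at DN2a became 735 higher and 1236 lower by fold and 656 higher and 823 lower by wells. For the pathway lists, alternatives added after seeing the data gave other counts. Without stroma-marker cells, 7 of 47 tested genes were lower at DN2b in place of 11 of 52. Outside mitochondrial genes, 7 of 70 were higher at DN2a in place of 2 of 70. Over all tested genes these shares were 6.72% and 3.26%. Without well 2 of ΔTE DN2a, 2 were higher and 34 lower of 70 in place of 2 and 24. The share over all genes was not computed without stroma-marker cells or without that well. No paired analysis was possible because the groups share only 1 replicate number. Starts match the libraries in 3 pairs, and a fit of genotype and start over the 6 libraries, with 2 residual degrees of freedom, was not run, since both genes were chosen for this contrast. With 1 library per condition the difference between genotypes cannot be told apart from that between cultures.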
